A study of Mus musculus with 18 samples.

Results

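The genes described here are 41 interferon-stimulated genes, of 24062 genes in the count table, measured by RNA sequencing in intestinal tumours of mice. They were chosen by name, as genes whose transcription is raised by interferons, with earlier results of these data known. They fall into 11 type I type genes (the Ifit, Oas and Mx families and Rsad2), 11 type II type genes (Gbp and Irgm family GTPases, Igtp, the Psmb8 and Psmb9 subunits of the immunoproteasome, and the peptide transporters Tap1 and Tap2) and 19 other members (5 transcription factors, 4 nucleic acid sensors and 10 effectors). The names follow which interferon is best known for raising each gene. Most of these genes respond to both. All 41 passed the filter on low counts.

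The tumours came from male C57BL/6 mice that all carried the Apc Min mutation on 1 allele (ApcMin/+), which gives rise to many intestinal adenomas. The groups differed in Macrod2, which encodes an enzyme that removes mono-ADP-ribose from proteins: Macrod2+/+ (wt, 6 tumours), Macrod2-/+ (het, 5 tumours) and Macrod2-/- (hom, 6 tumours), all labelled as tumours of the large intestine. The labels give 1 further Macrod2-/+ tumour, het 4, as coming from the small intestine, and it entered no comparison. Each tumour is named here by its genotype and the number of its mouse, and neither the age of the mice nor how the Macrod2 allele was made is given in the sources used here. Whole tumours were sequenced, so a lower level can mean fewer cells of a type or less RNA per cell, and these cannot be told apart.

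Interferon alpha and beta (type I) bind the receptor formed by Ifnar1 and Ifnar2, and the kinases Jak1 and Tyk2 then activate a complex that holds Stat2 and Irf9 and binds a DNA element called the interferon-stimulated response element (ISRE). Interferon gamma (type II) binds Ifngr1 and Ifngr2, and signals through Jak1 and Jak2 to genes with gamma-activated sites (GAS). Among these is Irf1, which in turn raises genes of antigen presentation through ISRE-like elements. Type I targets are chiefly antiviral, while type II targets act in cell-autonomous defence and in the cutting and transport of peptides for MHC class I. In the intestine, interferon gamma is made mainly by T and NK cells, and epithelial cells also respond to interferon lambda.

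The libraries held 13529204 to 20857918 counts over genes. Macrod2, the gene whose loss defines the groups, lay between 2.93 and 4.55 CPM (counts divided by the scaled library total) in wt, between 1.61 and 3.48 in het and between 0 and 0.405 in hom tumours, so the hom libraries fit their labels. The tumours wt 1 and wt 2, though labelled large intestine, had 170.8 and 179.3 CPM of Gata4, a transcription factor of the small intestine. The small intestinal tumour het 4 had 166.4 CPM, and the other 15 tumours had 0.282 to 47.3. The wt 3 library gave 27.0% of its counts to the ribosomal gene Rn45s, against at most 0.725% in any other. Colon markers were also summed. They reached 77.8 and 75.5 CPM in wt 1 and wt 2 and 4.82 to 92.9 CPM over all 17 large intestinal tumours. The small intestinal tumour het 4 had 60.5 CPM, so this sum does not separate the sites. Small intestine markers summed to 17776.5 and 27860.4 CPM in wt 1 and wt 2, 10924.5 in het 4 and at most 10425.7 in the other 15. Of these markers, Apoa4 had the most counts in wt 1 and wt 2, at 234153 and 344953. Lct had 15250 and 24086 counts in wt 1 and wt 2, 14279 in het 4 and at most 854 in the other 15. Not all markers went this way. Fabp6 had 34 and 25 counts in wt 1 and wt 2, 40 in het 4 and 154 to 29940 in the other 15. Sis was highest in hom 6, at 49529 counts, against 26730 and 11308 in wt 1 and wt 2 and 16933 in het 4.

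Promoter sequences were read from RefSeq (GRCm38.p6) to show the elements through which both classes are known to be driven. Of the 41 members, 32 had an entry, with 37 promoters between them, while Oas2, Mx1, Mx2, Tap2, Nlrc5, Dhx58, Zbp1, Usp18 and Rtp4 had none. The letters GAAANNGAAA, an ISRE core, were searched on both strands from 250 bases before to 50 bases after each start. They stood in 55.6% of 9 type I type, 63.6% of 11 type II type and 47.1% of 17 other promoters, against 3.44% of all 32851 promoters. The letters TTCNNNGAA, a GAS core, stood in 22.2%, 45.5% and 23.5% of these promoters, against 8.30% of all. A match is a description of letters, not a shown binding site, and the 2 motifs may overlap on the same bases.

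Promoters of 6 genes named below are shown as examples that hold a match, and not as a sample of their class. Each is given as the 150 bases just before the start, on the strand of the gene, with ISRE and GAS letters in capitals. A match on the opposite strand is printed as its reverse complement. Ifit1 (chr19:34640739-34640888, plus strand) and Rsad2 (chr12:26456453-26456602, minus strand) stand for the type I type, Gbp2 (chr3:142620513-142620662, plus strand), Igtp (chr11:58199406-58199555, plus strand) and Irgm1 (chr11:48871421-48871570, minus strand) for the type II type, and Irf1 (chr11:53769864-53770013, plus strand) for the factors.
Ifit1: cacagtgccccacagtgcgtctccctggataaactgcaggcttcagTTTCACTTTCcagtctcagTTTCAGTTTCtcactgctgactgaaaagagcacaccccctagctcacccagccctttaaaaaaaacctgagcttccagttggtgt
Rsad2: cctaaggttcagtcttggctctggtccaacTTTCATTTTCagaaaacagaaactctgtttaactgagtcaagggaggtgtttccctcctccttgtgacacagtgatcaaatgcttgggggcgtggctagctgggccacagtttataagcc
Gbp2: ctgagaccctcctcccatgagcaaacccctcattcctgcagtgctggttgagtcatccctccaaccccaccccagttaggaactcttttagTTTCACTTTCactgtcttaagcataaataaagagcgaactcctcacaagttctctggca
Igtp: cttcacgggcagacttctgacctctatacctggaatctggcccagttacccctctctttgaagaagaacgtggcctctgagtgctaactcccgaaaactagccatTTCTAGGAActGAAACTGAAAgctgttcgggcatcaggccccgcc
Irgm1: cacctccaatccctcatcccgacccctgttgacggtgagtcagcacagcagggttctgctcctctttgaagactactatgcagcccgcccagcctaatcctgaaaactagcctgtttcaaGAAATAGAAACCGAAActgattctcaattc
Irf1: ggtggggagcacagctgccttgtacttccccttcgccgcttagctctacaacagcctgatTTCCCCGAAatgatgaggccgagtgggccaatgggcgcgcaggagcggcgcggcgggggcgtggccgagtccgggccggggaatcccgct
Ifit1 has 2 ISRE matches and Irgm1 has 2 that overlap. Igtp has an ISRE match with a GAS match beside it, and Irf1 has a GAS match and no ISRE match in this window. A second Irf1 promoter in RefSeq had neither motif. Some promoters of both classes thus carry the ISRE letters, in Ifit1 and Rsad2 as in Gbp2, Igtp and Irgm1. Others do not: Oasl1 and Oasl2 of the type I type and Tap1 and Psmb9 of the type II type had neither motif.

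Levels per length were read from the authors' length-scaled read counts (RPKM). Ifitm3, a membrane protein that blocks viral entry, was the most abundant member, with a median of 1053.3 RPKM over the 17 large intestinal tumours. Next came the transcription factors Irf1 (35.01 RPKM) and Irf7 (34.6 RPKM) and the oligoadenylate synthetase-like gene Oasl1 (31.3 RPKM), the most abundant of the type I type. Their ranges of 24.8 to 46.1, 12.2 to 71.9 and 16.5 to 57.9 RPKM overlapped, so their order is not beyond their spread. Psmb8 led the type II type at 18.9 RPKM, just above Irgm1 at 17.5 RPKM. At the other end stood Gbp5 (0.293 RPKM), the antiviral GTPase Mx2 (0.225 RPKM) and Nlrc5, the activator of MHC class I genes (0.189 RPKM), which had no count in wt 2.

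The members varied more between tumours than most genes did. The SD of log2 CPM over the 17 tumours had a median of 0.97 for the type I type, 0.77 for the type II type and 0.68 for the other members, against 0.33 over all 14271 genes tested. Gbp2, a guanylate-binding GTPase that targets vacuoles of pathogens, varied most (SD 1.77, 53.7-fold from lowest to highest tumour) and Irf1 least (SD 0.25, 1.86-fold).

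The tumours that stood out were in part the same for both classes and in part different. For the type II type, Gbp2 stood at 73.9 CPM in het 1, 110.9 in het 2, 53.8 in hom 4 and 141.1 in hom 5. In the other 13 large intestinal tumours it lay between 2.62 and 17.6 CPM, so these 4 tumours stood apart, and they belonged to 2 genotypes. Gbp2 was looked at first because of this gap, seen in its values.

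These 4 tumours, picked on Gbp2, were each also above the other 13 for 6 of the 10 type II type members besides Gbp2, namely Gbp3, Gbp5, Igtp, Irgm1, Psmb9 and Tap1. This held for 0 of 11 type I type members and for 4 of 19 others, namely Irf1, Nlrc5, Zbp1 (a sensor of Z-form nucleic acids) and Usp18 (which removes Isg15 from proteins and damps type I signalling). Over all genes tested it held for 0.301%. Tap1, the peptide transporter, was at 57.8, 46.4, 36.0 and 50.2 CPM in het 1, het 2, hom 4 and hom 5 and at 9.41 to 22.9 CPM in the others. Irf1, Usp18 and Zbp1 separated them by very little. The lowest of the 4 had 137.9, 13.94 and 31.2 CPM, and the highest of the others had 137.7, 13.83 and 30.3 CPM. For Gbp7, Irgm2, Psmb8 and Tap2, at least 1 of wt 2 and wt 3 lay above the lowest of the 4.

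For the type I type, het 1 was the highest tumour for 10 of 11 members, with wt 2 highest for Oasl1, and it was highest for 12 of 19 others. Next to it, het 2, het 5 and hom 5 were each among the highest 4 tumours for 5 of the 11 type I type members, and hom 1 for 4. Ifit1, which binds foreign RNA caps, was at 70.7 CPM in het 1 and next at 39.7 CPM in het 5, whose Gbp2 was 4.06 CPM. Ifit1 was also above the wt range (8.03 to 21.1 CPM) in hom 5 at 33.2 CPM, in hom 1 at 32.8 CPM and, by little, in het 2 at 22.2 CPM and het 3 at 21.6 CPM, while hom 4 lay inside it at 18.05 CPM. Rsad2, the radical SAM enzyme viperin, was at 23.6 CPM in het 1 and 14.9 CPM in het 5, and between 0.730 and 7.94 CPM in the other 15 large intestinal tumours. Isg15, a ubiquitin-like protein joined to other proteins, was at 33.6 CPM in het 1 and at most 14.2 CPM elsewhere.

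**Figure D1:**
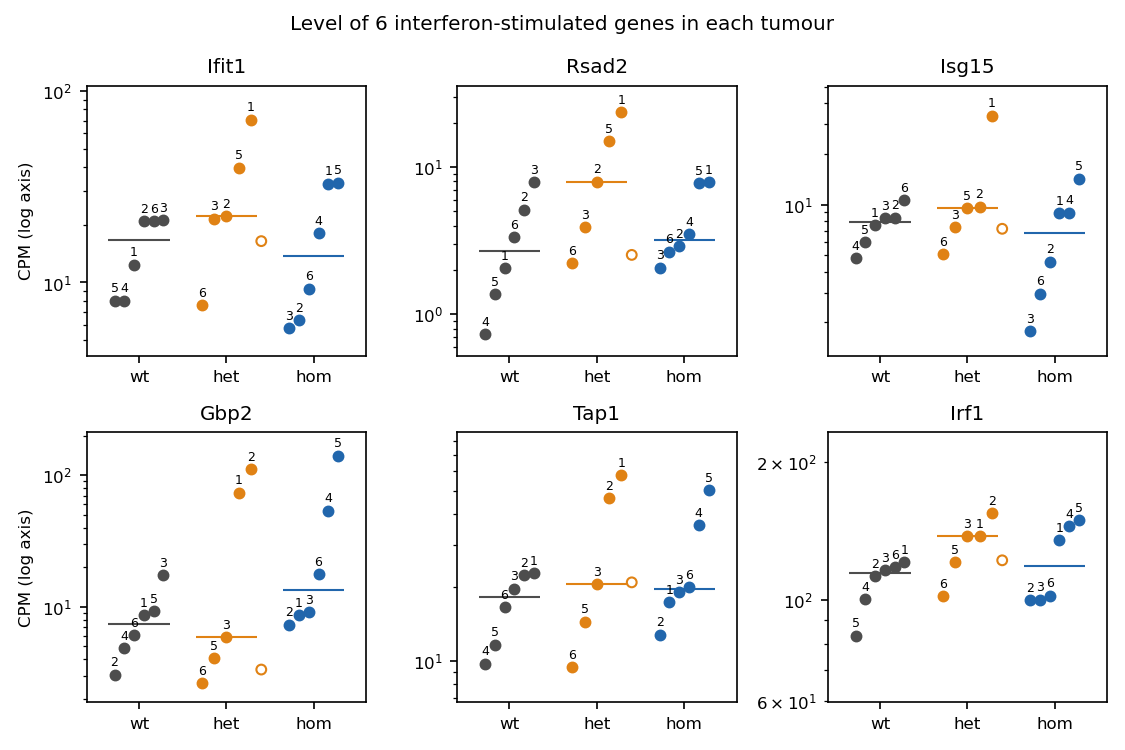
CPM on a log axis (6 genes, 1 panel each) in wt, het and hom tumours, 1 filled point per large intestinal tumour with its number, lines at the group medians, and an open point for the small intestinal tumour het 4. Gbp2 and Tap1 have het 1, het 2, hom 4 and hom 5 above all others, while Ifit1, Rsad2 and Isg15 have het 1 at the top.

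A score per class, the mean over its members of log2 CPM relative to the mean of the 17 tumours, put these values together. The type I type score was 1.91 in het 1, 0.64 in hom 5, 0.57 in het 5 and 0.53 in hom 1. The type II type score of those tumours was 1.45, 1.49, -0.57 and -0.23, so het 1 and hom 5 were high in both classes, and het 5 and hom 1 in the type I type only. The type II type score was 1.57 in het 2 and 0.996 in hom 4, where the type I type score was 0.46 and 0.25. At the low end hom 3 (-1.21) and hom 6 (-0.84) were lowest for the type I type, while their type II type scores of -0.33 and 0.01 lay mid-range, and het 6 was lowest for the type II type (-1.31) and among the lowest 4 tumours for all 11 of its members. In wt 4 both scores were low, at -0.77 and -0.98, and in het 6 the type I type score was -0.49.

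The type II type minus type I type score averaged -0.17 ± 0.28 (SD, n = 6) over the wt tumours, -0.32 ± 0.86 (SD, n = 5) over the het tumours and 0.44 ± 0.66 (SD, n = 6) over the hom tumours. It was positive in 5 of 6 hom tumours, in 2 of 6 wt and in 1 of 5 het tumours. The hom and het ranges, -0.76 to 0.88 and -1.13 to 1.11, overlapped. These scores are a description of genes chosen with results known, and no p is given for them.

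**Figure D2:**
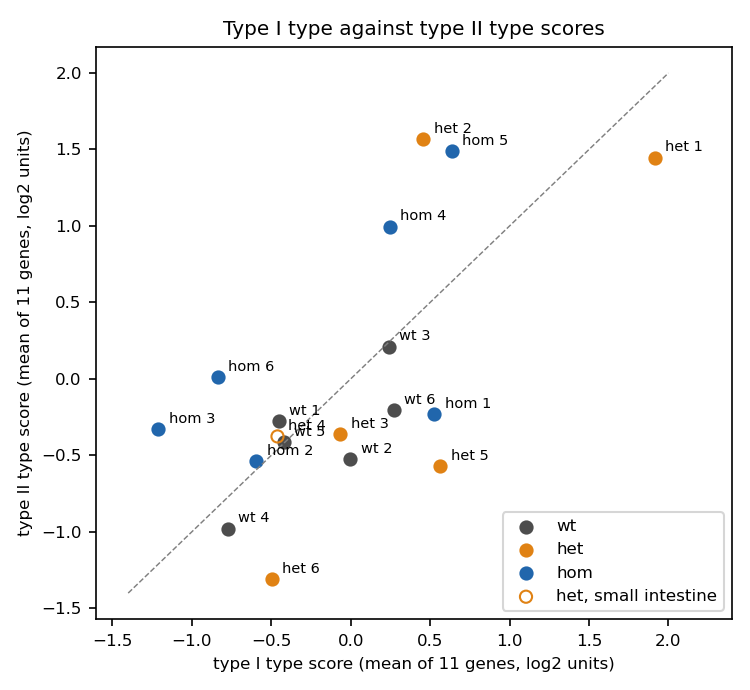
Type I type score (horizontal, log2 units) against type II type score (vertical, log2 units) of each tumour, coloured by Macrod2 genotype, with the dashed line at equal scores. Het 1 is high in both (1.91 and 1.45) and lies below the line, as do het 5, het 6 and hom 1 among others. Het 2, hom 4 and hom 5 lie above it. So do others, among them hom 3 and hom 6, whose type I type scores are low (-1.21 and -0.84).

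**Figure D3:**
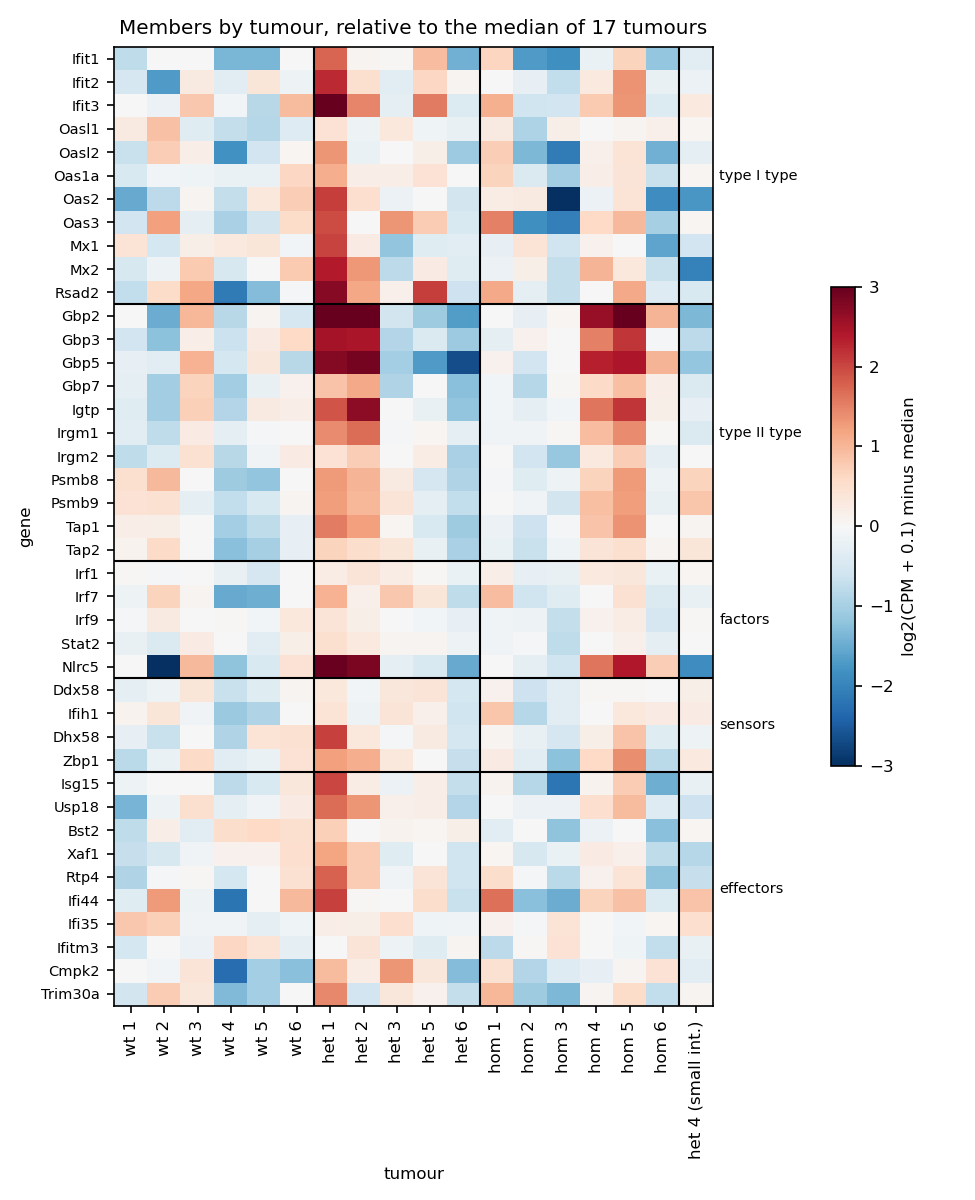
All 41 members (rows, in 5 groups) in 18 tumours (columns), as log2(CPM + 0.1) minus the gene's median over the 17 large intestinal tumours, with the colour scale ending at -3 and 3. Het 1 is red through the type I type and type II type blocks, whereas het 2, hom 4 and hom 5 are reddest for Gbp2, Gbp3, Gbp5, Igtp and Nlrc5. Paler red is seen there for Irgm1, Tap1 and Psmb9, and also for type I type members, such as Ifit3 in het 2 and hom 5.

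Across tumours, 6 gene pairs were correlated on log2 CPM with two-sided permutation tests, adjusted over the 6, of which 4 are reported here. The genes of these pairs come from lists chosen with earlier results of these data known, which the p-values do not take into account. Ifit1 and Rsad2 went together (n = 17, r = 0.89, rho = 0.87, permutation p = 2.0e-05 for r, adjusted 1.2e-04, and r = 0.85 without het 1 and hom 3, the farthest from the median). Irf7, the factor that amplifies type I interferon, and Irf1 had r = 0.77 and rho = 0.74 (n = 17, permutation p = 3.2e-04, adjusted 6.4e-04, r = 0.67 without wt 4 and wt 5).

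Because Gbp2 fell into separate clusters, its pairs were correlated within the 13 tumours of low Gbp2 only. There Gbp2 had r = -0.11 with Ifit1 (rho = -0.14, permutation p = 0.713) and 0.01 with Psmb9 (rho = 0.01, permutation p = 0.979), with adjusted p of 0.959 and 0.979. Without the 2 tumours farthest from the median, r was -0.03 and -0.25. Within this cluster neither pair was past the threshold. Picking tumours by low Gbp2 narrows its range, so these r cannot tell how Gbp2 relates to either gene over all 17 tumours. For Psmb9, the lowest of het 1, het 2, hom 4 and hom 5 had 18.97 CPM and the highest of the 13 had 13.9 CPM. For Ifit1 these values were 18.05 and 39.7 CPM.

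The first comparison was het versus wt, groups labelled as differing in 1 Macrod2 copy. In wt 1 and wt 2, Gata4 and Lct were near their levels in the small intestinal tumour het 4. No het or hom tumour compared had such levels, so site and genotype cannot be fully told apart in comparisons with wt. Estimates were higher in het for 38 of 41 members, among them 11 of 11 type I type, 11 of 11 type II type and 16 of 19 others, against 43.2% of all genes tested. The median log2 fold change was 0.86 for the type I type, 0.76 for the type II type and 0.41 for the others, against -0.03 over all genes. With limma-voom the type II type median was 0.39. With wt 1 and wt 2 left out together the medians were 0.75 for the type I type and 0.92 for the type II type. No member passed an adjusted p of 0.05 (0 of 41, edgeR adjusted p = 0.999 for each named member), and 0.0% of all genes did. At an unadjusted p under 0.05, 9 members were higher and 0 lower, against 1.18% and 1.67% of all genes, and DESeq2 gave 12 and 0 and limma-voom 2 and 0. The 9 became 4 without het 2, wt 4 or wt 5 and with all 18 tumours, 5 without wt 1, wt 2 or both, 6 without hom 3 and with the 2 groups alone, 17 without het 6, and 0 without het 1 and with the mouse number as a block.

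Of the type I type, Rsad2 ran from 0.730 through a median of 2.69 to 7.88 CPM in wt, and was 23.6, 7.94, 3.89, 14.9 and 2.23 CPM in het 1, het 2, het 3, het 5 and het 6. Its log2 fold change was 1.61 (SE 0.62, edgeR unadjusted p = 0.0189). Ifit3, an Ifit1 partner, ran from 3.06 (median 5.35) to 10.8 CPM in wt and from 4.11 (median 15.4) to 49.6 CPM in het (log2 fold change 1.44, SE 0.57). In both genes het 1, het 2 and het 5 carried the higher group mean, while het 3 and het 6 lay inside the wt range. Ifit2 had 1.11 (SE 0.46), and Oasl1 the smallest estimate of the class at 0.10 (SE 0.29).

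Of the type II type, Gbp2 was 3.04 to 17.3 CPM in wt (median 7.38) and 73.9, 110.9, 5.89, 4.06 and 2.62 CPM in het 1, het 2, het 3, het 5 and het 6. The log2 fold change of 2.26 (SE 1.003, edgeR unadjusted p = 0.0390) thus rested on 2 tumours, and with limma-voom it was 1.02. Irgm1, a GTPase of autophagic defence, gave 0.95 (SE 0.37) and Gbp3 1.46 (SE 0.68), from the same 2 tumours. Irgm1 was 105 and 126 CPM in het 1 and het 2, and 32.6 to 40.6 CPM in the other het tumours against 23.0 to 46.4 CPM in wt.

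Among the other members, Nlrc5 (1.94, SE 0.89), Cmpk2 (0.98, SE 0.45), a mitochondrial nucleotide kinase next to Rsad2, and Usp18 (0.84, SE 0.40) were the 3 at an unadjusted p under 0.05, and Rtp4, a chaperone-like effector, was next at 0.76 (SE 0.39). Nlrc5 followed Gbp2, at 10.9 and 9.99 CPM in het 1 and het 2 and at most 1.06 CPM in the other het tumours. Cmpk2 did not: it was highest in het 3, at 46.5 CPM. Ifi35, Ifitm3 and Irf9 were the 3 members with a lower estimate, at -0.10, -0.07 and -0.06.

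These figures leaned on het 1. Without it, 33 of 41 estimates were higher, 0 members had an unadjusted p under 0.05, and the medians fell to 0.25 for the type I type and 0.42 for the type II type. Without het 2 the type II type median was 0.58. No member had groups that did not overlap, and 0.14% of all genes had.

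**Figure D4:**
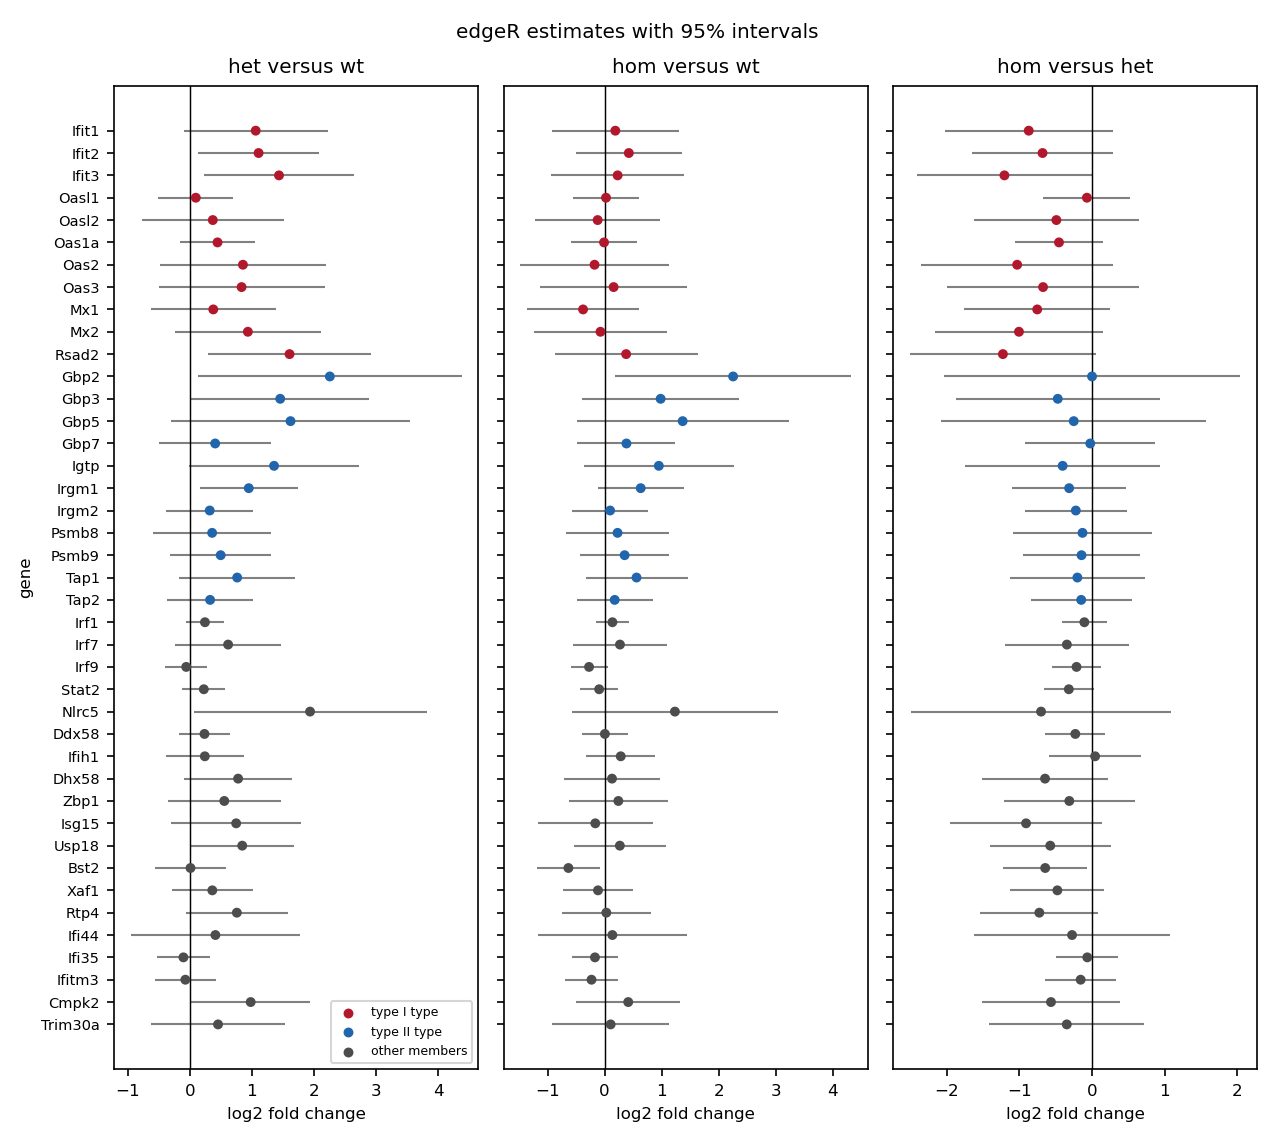
Log2 fold change of each of the 41 members (rows) in het versus wt, hom versus wt and hom versus het, as edgeR estimates (points) with 95% intervals (lines). In het versus wt both classes lie right of 0. In hom versus wt the type I type lies around 0 and the type II type right of it. In hom versus het both classes lie left of 0, with medians of -0.76 for the type I type and -0.20 for the type II type. Most intervals cross 0.

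The second comparison, hom versus wt, used the same wt tumours as the first, so the limit on site holds here too. Estimates were higher for 29 of 41 members, against 45.7% of all genes: 6 of 11 type I type (median log2 fold change 0.03), 11 of 11 type II type (median 0.56) and 12 of 19 others (median 0.11), against -0.03 over all genes. No member passed (0 of 41), and 0.00701% of all genes did, which is Macrod2 alone. At an unadjusted p under 0.05, 1 member was higher and 1 lower, against 5.35% and 10.6% of all genes, which are larger shares than among the members. DESeq2 likewise gave 1 and 1, and limma-voom 0 and 1. With 1 tumour left out, 0 to 1 members were higher and 0 to 2 lower, and with the 2 groups alone 4 were higher and 0 lower. The count of higher members was 0 without wt 1, wt 2, wt 4, wt 6, hom 4 or hom 5, and that of lower members was 0 without wt 4, wt 5, wt 6, hom 3 or hom 6 and 2 without hom 5.

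Gbp2 was that higher member. It ran from 7.30 through a median of 13.4 to 141.1 CPM in hom, against 3.04 to 17.3 CPM in wt, and only hom 4, hom 5 and, at 17.6 CPM, hom 6 lay above the wt range. Its log2 fold change was 2.25 (SE 0.98, edgeR unadjusted p = 0.0347, adjusted p = 0.294), and 1.23 without hom 5. Gbp5, a partner of inflammasome assembly, had 1.37 (SE 0.88) and Irgm1 0.63 (SE 0.36), also with hom 4 and hom 5 on top. Of the peptide pathway, Tap1 had 0.56 (SE 0.42), Psmb9 0.35 (SE 0.37) and Psmb8 0.23 (SE 0.43).

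Bst2, or tetherin, which holds budding virus at the cell surface, was the lower member. It ran from 5.51 (median 11.2) to 13.3 CPM in hom and from 7.82 (median 16.95) to 20.1 CPM in wt, so the hom tumours lay low with an overlap at wt 1 and wt 3. The log2 fold change was -0.63 (SE 0.26, edgeR unadjusted p = 0.0277, adjusted p = 0.280). Irf9, the DNA-binding part of the type I complex, had -0.27 (SE 0.15), Nlrc5 1.23 (SE 0.86) and Ifitm3 -0.23 (SE 0.22).

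The type I type members stayed near 0 with wide intervals: Ifit2 had 0.43 (SE 0.44), Rsad2 0.38 (SE 0.60) and Mx1, an antiviral GTPase, -0.38 (SE 0.46). Their 95% intervals, -0.51 to 1.36, -0.88 to 1.63 and -1.36 to 0.60, each held 2-fold changes in 1 direction. Without hom 5, 20 of 41 members were higher and the medians were -0.07 for the type I type and 0.29 for the type II type. With wt 1 and wt 2 left out together they were 0.12 and 0.73, and with limma-voom -0.09 and 0.50. No member had groups that did not overlap, and 0.68% of all genes had.

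The third comparison, hom versus het, used the same het and hom tumours. The type I type lay lower in hom for 11 of 11 members (median log2 fold change -0.76), the type II type for 11 of 11 (median -0.20) and the others for 18 of 19 (median -0.35), against a median of -0.01 over all genes. Only Ifih1, the RNA sensor MDA5, had a higher estimate (0.04, 1 of 41 members, against 48.2% of all genes). No member passed (0 of 41), and 0.00701% of all genes did, again Macrod2 alone. At an unadjusted p under 0.05, 0 members were higher and 2 lower, against 0.974% and 1.03% of all genes, with 0 and 3 by DESeq2 and 0 and 1 by limma-voom. The 2 lower became 10 without het 6, 6 without het 3 or hom 5, and 5 without hom 1. They became 1 without het 2, het 5, hom 2, wt 1, wt 2 or wt 3, and 0 without het 1, hom 3 or hom 6.

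The lower members were Ifit3 (-1.21, SE 0.57, edgeR unadjusted p = 0.0490) and Bst2 (-0.65, SE 0.27, edgeR unadjusted p = 0.0306). Ifit3 was 49.6, 15.4, 4.56, 16.4 and 4.11 CPM in het 1, het 2, het 3, het 5 and het 6 and ran from 3.59 (median 6.83) to 13.97 CPM in hom. Bst2 was 13.2 to 21.9 CPM in het, so that only hom 5, at 13.3 CPM, reached the het range. Rsad2 had -1.23 (SE 0.61), Mx2 -1.01 (SE 0.55), Isg15 -0.91 (SE 0.50), Rtp4 -0.73 (SE 0.39) and Stat2 -0.32 (SE 0.16).

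Gbp2 did not separate these groups, with group means of 39.6 CPM in hom and 39.5 CPM in het and a log2 fold change of -0.00 (95% interval -2.04 to 2.04). Gbp3 had -0.47 (SE 0.67), Irgm1 -0.32 (SE 0.37) and Irgm2 -0.22 (SE 0.33). Without het 1, 14 of 41 estimates were higher, and the medians were -0.24 for the type I type and 0.12 for the type II type. Without het 2 the type II type median was 0.03, and without hom 5 the medians were -1.07 and -0.51. With limma-voom 5 estimates were higher and the type II type median was -0.04. No member had groups that did not overlap, and 0.189% of all genes had.

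The interferons themselves were at or near 0. Ifnb1, Ifna1, Ifna2, Ifna4 and Ifnl3 had 0 counts in all 17 large intestinal tumours. A floor of 3 counts corresponds to 0.141 to 0.275 CPM per library and covers counting error only. Ifng had 20 counts in all, spread over 8 tumours, with 6 in het 2 and 5 in hom 3 as the highest. It had 0 counts in het 1 and 2 each in hom 4 and hom 5, so its counts were too few to order these tumours. Ifne, the epithelial type I interferon, had 29 counts in 13 tumours. None of the 10 ligands was tested.

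Of the 6 receptor genes, none passed in any of the 3 comparisons. Ifnar2 ran from 26.3 (median 36.8) to 52.2 CPM in wt, was 26.7 to 32.7 CPM in het and 26.7 to 31.7 CPM in hom, with wt 2 and wt 4 highest. Its log2 fold change was -0.42 in het (SE 0.14, edgeR unadjusted p = 0.00910, adjusted p = 0.999) and -0.48 in hom (SE 0.14, edgeR unadjusted p = 0.00225, adjusted p = 0.258), both against wt. Ifngr1 had 0.42 in hom versus wt (SE 0.16, edgeR adjusted p = 0.264), from 98.4 to 188 CPM in wt and 180 to 248 CPM in hom, which overlap. Ifnar1, Ifngr2, Ifnlr1 and Il10rb were all between -0.31 and 0.18.

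Of 10 signalling genes, none passed. The phosphatase Ptpn2, which switches off Jak kinases, had -0.22 in het (SE 0.12) and -0.30 in hom (SE 0.11), and Irf3, the factor that starts type I interferon transcription, -0.34 in hom (SE 0.16), all against wt. Of 13 sensing genes 12 were tested, and none passed. Their median log2 fold change was 0.05 in het and -0.00 in hom versus wt. The RNA-activated kinase Eif2ak2 had 0.20 (SE 0.15) and 0.28 (SE 0.14).

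Of 15 further interferon gamma targets, none passed, 13 were higher in het versus wt (median log2 fold change 0.74), 9 in hom versus wt (median 0.86) and 3 in hom versus het (median -0.18). Cxcl9, a chemokine that draws T cells, was 38.6, 74.3, 25.2 and 62.4 CPM in het 1, het 2, hom 4 and hom 5 and 0.463 to 7.69 CPM in the other 13. Its log2 fold change was 3.32 in het (SE 1.26) and 2.89 in hom versus wt (SE 1.22, edgeR adjusted p = 0.285). The same 4 tumours were above the other 13 for 7 of the 15, namely Cxcl9, Cxcl10, Ciita (the activator of MHC class II genes), Cd274 (the checkpoint ligand PD-L1), Gbp4, Gbp6 and Gbp9. They were not for Ido1, which breaks down tryptophan (15.4 CPM in the lowest of the 4 and 16.7 CPM in hom 1), for Gbp8 (2.52 CPM in the lowest of the 4 and 2.96 CPM in hom 2) or for Cxcl11, highest in wt 1. B2m, H2-K1 and H2-D1, the chains of MHC class I, Tapbp, which loads them, and the immunoproteasome subunit Psmb10 were highest in wt 2. That tumour had Gata4 near the level of the small intestinal tumour het 4, and the part of site in these values was not tested.

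Markers of other cells were read in the same tumours. For T and NK cells, 10 of 11 markers were analysed, 7 of them at 0 counts in at least 1 tumour, and their sum ran from 1.61 to 80.2 CPM in wt, 3.54 to 20.7 in het and 6.17 to 15.5 in hom. It was 9.98, 12.2, 15.5 and 6.17 CPM in het 1, het 2, hom 4 and hom 5, within the range of the other 13, and highest in wt 2. Gzmb, 1 of these markers, ran from 12 to 819 counts and weighed heavily in that sum. In wt 2 it had the 819 counts, and the next marker, Cd3g, had 99. Macrophage markers (7 of 8 analysed, none at 0) summed to 31.8 to 85.5 CPM in wt, 34.7 to 84.3 in het and 55.1 to 101 in hom, with 84.3, 76.5, 74.9 and 70.9 CPM in those 4 tumours. The part of these cells in the tumour pattern was not tested.

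The plasmacytoid dendritic cell list (7 of 7 analysed, 2 at 0 in at least 1 tumour) summed to 230 to 316 CPM in wt, 278 to 300 in het and 283 to 337 in hom. Tcf4 and Klk1 made up 72.8% to 86.0% of that sum in each tumour, while Siglech, a defining marker of these cells, had 0 to 11 counts. Conventional dendritic cell markers (7 of 7, 4 at 0 somewhere) summed to 2.41 to 11.2, 3.54 to 6.45 and 3.84 to 7.98 CPM, and B cell markers (5 of 5, 4 at 0 somewhere) to 1.04 to 2.99, 0.706 to 6.73 and 1.16 to 2.33 CPM. Epithelial markers (8 of 8, none at 0) summed to 10211 CPM in the lowest of the 17 tumours. Fibroblast markers (6 of 6, none at 0) ran from 221 to 434 CPM in wt, 245 to 483 in het and 295 to 679 in hom, and endothelial markers (5 of 5, none at 0) from 36.5 to 216, 36.9 to 88.4 and 55.7 to 153 CPM. Their part in the differences between genotypes was not tested either.

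Some members overlap other genes in the annotation, and reads shared between them were not measured. Igtp and Irgm2 overlap by 7974 bases on the same strand of chromosome 11 in GENCODE (Igtp chr11:58199556-58207591, Irgm2 chr11:58199618-58222782, GRCm38), Psmb9 and Tap1 overlap by 212 bases on opposite strands, and Irf1, Irf7, Irf9 and Rtp4 each overlap another coding gene. The Ifit3, Oas1a, Gbp and Trim30a genes have close paralogues, among which the counting can split or lose reads, and Mx2 is annotated as a polymorphic pseudogene. The values of these members are uncertain to that degree.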

How the data were processed

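The members and gene lists were chosen with earlier results of these data known. Per the labels' protocols, RNA was extracted from resected tumours with the AllPrep kit and libraries were made with a stranded TruSeq total RNA kit. The molecule field of the labels names polyA RNA instead. The deposited table gives the authors' whole-number counts per gene and their RPKM. Trimmomatic, TopHat and featureCounts (Subread 1.4.5-p1) were used with mm10, per the submitters' processing notes, and the strand setting is not given in the sources used here. In each library the deposited RPKM equalled counts per length and total, divided by a TMM factor.

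Counts were tested with edgeR 4.0.16 (robust quasi-likelihood, TMM factors, filterByExpr, 14271 genes) in 1 fit to the 17 large intestinal tumours, with p-values adjusted (Benjamini-Hochberg) over those genes and called at 0.05. The fit was first tested on simulated data. DESeq2 1.42.0, limma 3.58.1, other scalings, no filter, other sample choices, a replicate block and leaving out each tumour were alternatives. Levels are CPM with TMM factors over 18 libraries, and scores and correlations use log2 CPM with a prior count of 2. Correlations used 100000 permutations. Those with Gbp2 were restricted to 13 tumours after its values were seen, where all 17 had been planned. The titles number the mice, so tumours were taken as separate animals, and no batch is named. Total counts per library, 13529204 to 20857918, set the precision of low genes: 1 to 3 counts are near the floor. No 2 libraries agreed within sampling noise (lowest chi-square per degree of freedom 20.3).

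Named per comparison were the 3 type I type, 3 type II type and 4 other members of smallest p, and the members of highest and lowest RPKM. Ligands, receptors, Cxcl9, Cxcl10, Ciita and Ido1 were also named. Further genes were named after their values were seen, and 1 signalling gene with its gene pairs is not reported here.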

Additional observations from a re-analysis of the deposited data

Results flagged for a closer look

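Within 1 genotype, 3 of 132 tests of a single far tumour (41 members and 3 class scores in 3 groups) passed, where 6.6 are expected by chance at 1 in 20. Oasl1 was lowest in hom 2, at 35.05 CPM, with the next hom tumour at 66.5 CPM. Oas1a was highest in wt 6, at 28.96 CPM, with the next wt tumour at 18.04 CPM. Bst2 was highest in het 1, at 21.94 CPM, with the next het tumour at 15.1 CPM.

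The small intestinal tumour het 4, which enters no comparison, was above every wt tumour for 2 members. The share over all genes was not counted, so these 2 are not read as an excess. Psmb9 was at 18.1 CPM there against at most 13.9 CPM in wt, and Irf1 at 121.9 CPM against at most 120.7 CPM.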

How the results depend on the processing

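In 26 alternatives to each comparison, 0 members passed the threshold. Of 2002 repeats of 77 named fold changes, 1951 kept their direction and side of the threshold. No named gene but Macrod2 passed in the main fit, so this count speaks mainly of direction, and not of size. Isg15 in hom versus het, for 1, kept its direction but went from -0.91 to -0.20 without het 1. Genes called in hom versus wt were 22 with DESeq2 and 2 with the replicate block, against 1, and 1 to 2 with a tumour left out. In hom versus het they were 0 with the 2 groups alone and 0 with the replicate block, against 1. Members with a higher estimate in hom versus het were 2 (DESeq2, its size factors, no filter, and the 2 groups alone), 3 (18 tumours), 5 (limma-voom) and 7 (replicate block), and 0 to 14 with a tumour left out. Same-numbered tumours deviated together in 4 of 16 pairs (r over 0.1, range -0.45 to 0.33). Differently numbered pairs were not looked at, so this cannot tell whether the numbers pair the tumours. The type I type median in hom versus wt was -0.18 with the replicate block. The cause of these shifts was not tested.

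Values that changed sign follow. Gbp2 with Psmb9 had r = -0.18 with het 4 added to the 13 tumours of low Gbp2 (n = 14) and -0.00448 on RPKM, and Ifit1 with Gbp2 0.13 centred by genotype. With limma-voom, hom versus het gave 0.89 for Cxcl9 and 0.044 for Gbp3. Ifnar1 in het versus wt was 0.00453 (DESeq2), 0.00426 (size factors), 0.00338 (18 tumours), 0.015 (no filter), 0.020 (2 groups) and 0.028 (upper quartile). Without wt 1 and wt 2, Ifngr2 was 0.16 in het and 0.17 in hom, and Il10rb 0.090 and 0.041. Ifngr2 in hom versus het was -0.014 with 18 tumours, and Ifnlr1 in het versus wt -0.026 with 18 tumours and -0.016 with the replicate block.

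With a tumour left out, r ran from -0.26 to 0.24 for Gbp2 with Psmb9 and -0.29 to 0.029 for Ifit1 with Gbp2. In hom versus het the ranges were -0.64 to 0.24 for Ciita, -0.87 to 0.28 for Cxcl10, -1.501 to 0.73 for Cxcl9, -0.96 to 0.029 for Gbp3, -0.17 to 0.99 for Ido1, -0.076 to 0.077 for Ifngr2, -0.10 to 0.065 for Il10rb and -0.61 to 0.027 for Irgm1. In het versus wt they were -0.041 to 0.66 for Ido1, -0.042 to 0.044 for Ifnar1, -0.15 to 0.11 for Ifngr2 and -0.034 to 0.070 for Ifnlr1, and in hom versus wt -0.13 to 0.11 for Ifngr2.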
